A study of Mus musculus with 10 samples.

Results

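The CC chemokines are small secreted proteins that draw leukocytes along a concentration gradient. The transcripts of 10 of them (*Ccl2*, *Ccl3*, *Ccl4*, *Ccl5*, *Ccl6*, *Ccl7*, *Ccl9*, *Ccl12*, *Ccl17* and *Ccl22*) were followed in RAW264.7 cells, a mouse macrophage line. They were taken as the rows of the count table whose Ensembl identifiers carry these symbols, 10 of the 43432 genes in the table. Each of the 10 symbols matched 1 identifier, and all 10 genes passed the filter on low counts.

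CC chemokines carry a pair of adjacent cysteines near the start of the mature protein and act through membrane receptors of the Ccr family. Macrophages make many of them within hours of meeting lipopolysaccharide (LPS), the cell wall component of Gram-negative bacteria, which is sensed by Tlr4 and relayed by NF-κB and, through interferon beta, by Stat proteins. The inflammatory members call in monocytes, T cells, dendritic cells and eosinophils.

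Cells of the line were grown under 5 conditions with 2 libraries each. Resting cells received 0.5% DMSO alone (DMSO), and stimulated cells received 0.5% DMSO and LPS at 1 µg/mL (DMSO + LPS). The other cells received LPS at the same dose together with 32, 10 or 3.2 µM of **1**, an unsaturated keto fatty acid made by cyanobacteria. Solvent or **1** was given 1 h before LPS, and RNA was taken after 12 h. Compound **1** without LPS was not analysed here. The labels number the libraries of a condition as biological replicates, and nothing further states that they came from separate cultures, so the p-values measure the spread between these libraries. RAW264.7 is a single immortalized line kept in culture, which limits it as a model of tissue macrophages.

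The 10 libraries held between 45966803 and 58976377 counts. Levels are given as CPM, counts relative to a library total scaled by edgeR's TMM factor. All 8 macrophage markers checked (*Adgre1*, *Cd68*, *Csf1r*, *Itgam*, *Lyz2*, *Fcgr1*, *Cd14* and *Mrc1*) were over 1 CPM in every library. Their sum was 10442 to 11326 CPM in the DMSO libraries, 9567 to 9658 CPM with DMSO + LPS, and 8847 to 9016 CPM (3.2 µM), 7780 to 8518 CPM (10 µM) and 7284 to 7665 CPM (32 µM) with **1**, so the sum, to which *Lyz2* gave between 2585 and 6841 CPM, was lower at each higher dose, without overlap between conditions. Of 4 T cell markers *Cd3e* and *Cd8a* had 0 counts in every library, *Cd3d* and *Cd4* had at most 2 and 4, and the 4 summed to at most 0.0699 CPM. One library stood apart by other markers: in replicate 1 at 10 µM the 4 epithelial markers (*Epcam*, *Krt8*, *Krt18* and *Cdh1*) summed to 38.2 CPM, against 5.78 CPM in replicate 1 at 3.2 µM and at most 0.0850 CPM in the other 8 libraries. Its fibroblast markers summed to 2.94 CPM, against 0.0510 to 0.367 CPM elsewhere, while B cell markers summed to between 0.119 and 0.354 CPM over all libraries. The 3 dendritic cell markers summed to 2.02 and 2.06 CPM in the DMSO libraries and to between 7.12 and 8.38 CPM in the 8 libraries with LPS. They did not move as a set. Over all libraries *Xcr1* ran from 0.153 to 6.49 CPM and *Zbtb46* only from 1.45 to 2.32 CPM, while *Flt3* had at most 4 counts in a library. Another stood apart by ribosomal RNA: 6 features of that kind, listed after their values were seen, took up 4.20% of replicate 2 at 32 µM, whereas the range over the other 9 libraries was 0.177% to 0.390%. The part of all these differences in the chemokine results was not tested.

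Where a gene is said to be called, it changed at least 1.5-fold with a Benjamini-Hochberg adjusted p below 0.05 over the 14172 genes tested, in edgeR's quasi-likelihood test on all 10 libraries in a single fit. An exact permutation test of 2 libraries against 2 cannot go below p = 0.333, so these p-values rest on a spread pooled over conditions and genes. In RNA from whole cultures, fewer expressing cells and less RNA per cell cannot be told apart.

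The hallmark that gives the family its name is shown in the coding sequence of 5 members, from GENCODE M21 transcripts on GRCm38, 5′ to 3′ on the coding strand, with the codons of the adjacent cysteines in capitals.
Ccl12: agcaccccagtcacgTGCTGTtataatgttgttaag
Ccl6: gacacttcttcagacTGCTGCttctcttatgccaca
Ccl9: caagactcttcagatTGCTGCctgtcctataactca
Ccl17: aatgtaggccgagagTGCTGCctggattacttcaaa
Ccl22: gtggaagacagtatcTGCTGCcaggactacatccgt
The *Ccl12* stretch lies in exon 2 of 3 at chr11:82102619-82102654 on the plus strand, that of *Ccl6* in exon 3 of 4 at chr11:83589371-83589406 on the minus strand and that of *Ccl9* in exon 3 of 4 at chr11:83575911-83575946 on the minus strand. Those of *Ccl17* and *Ccl22* lie in exon 2 of 3 at chr8:94811197-94811232 and chr8:94746919-94746954, both on the plus strand. Reads of such related genes can be assigned to the wrong copy where the sequences are alike. The longest run of identical bases between the transcripts of any 2 members was 25 nt, between *Ccl6* and *Ccl9*, against reads of 150 cycles.

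The genes lie in 3 groups on the genome. *Ccl2* (ENSMUSG00000035385, chromosome 11, 82035571 to 82037453), *Ccl7* (ENSMUSG00000035373, 82045712 to 82047525) and *Ccl12* (ENSMUSG00000035352, 82101845 to 82103400) follow each other on the plus strand within 67.8 kb. A second group on chromosome 11 spans 139 kb and holds *Ccl5* (ENSMUSG00000035042, 83525778 to 83530518), *Ccl9* (ENSMUSG00000019122, 83572919 to 83578636), *Ccl6* (ENSMUSG00000018927, 83587882 to 83593087) and *Ccl3* (ENSMUSG00000000982, 83647844 to 83649355) on the minus strand and *Ccl4* (ENSMUSG00000018930, 83662584 to 83664683) on the plus strand. *Ccl22* (ENSMUSG00000031779, chromosome 8, 94745590 to 94751699) and *Ccl17* (ENSMUSG00000031780, 94810453 to 94812036) share 66.4 kb on the plus strand of chromosome 8. *Ccl2* and *Ccl6* each overlap a gene on the opposite strand in the annotation, without overlap of exons.

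*Ccl2*, *Ccl7* and *Ccl12* code for monocyte chemoattractants, which act on the receptor Ccr2. *Ccl2* stood at 22.8 and 23.3 CPM in the DMSO libraries, 844 and 862 CPM with DMSO + LPS, and then with **1** at 906 and 879 CPM (3.2 µM), 414 and 418 CPM (10 µM) and 162 and 160.3 CPM (32 µM). The 2 libraries of each condition lay close together, those at 10 and at 32 µM lay below both libraries of DMSO + LPS, and those at 3.2 µM lay slightly above. *Ccl2* rose 37.0-fold with LPS (log2 fold change 5.21, SE 0.0473, adjusted p = 2.64e-10). It fell 2.05-fold at 10 µM (log2 fold change −1.03, SE 0.0397, adjusted p = 5.01e-05) and 5.30-fold at 32 µM (log2 fold change −2.41, SE 0.0414, adjusted p = 2.27e-07), while at 3.2 µM the log2 fold change was 0.06 (95% interval −0.03 to 0.16).

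*Ccl7*, which also acts on Ccr1 and Ccr3, stood at 0.646 and 0.740 CPM in the DMSO libraries, 56.4 and 52.9 CPM with DMSO + LPS, and then with **1** at 52.3 and 56.6 CPM (3.2 µM), 22.1 and 23.9 CPM (10 µM) and 5.50 and 6.86 CPM (32 µM). Its libraries at 3.2 µM overlapped those of DMSO + LPS, and those at both higher doses lay well below. The rise with LPS was 78.6-fold (log2 fold change 6.30, SE 0.141, adjusted p = 1.71e-08), and the fall was 2.38-fold at 10 µM (log2 fold change −1.25, SE 0.102, adjusted p = 0.00139) and 8.85-fold at 32 µM (log2 fold change −3.15, SE 0.112, adjusted p = 3.29e-06). *Ccl12* was much scarcer, with 3 and 2 counts in the DMSO libraries, 70 and 40 counts with DMSO + LPS, and then with **1** at 38 and 32 counts (3.2 µM), 25 and 24 counts (10 µM) and 6 and 5 counts (32 µM). Both DMSO + LPS libraries exceeded those of the 3 doses, and the 10 µM difference was not called (log2 fold change −0.96, SE 0.306, adjusted p = 0.219). The 32 µM difference was called (log2 fold change −3.13, SE 0.356, adjusted p = 0.00102). Against the 5 counts in DMSO, the 110 counts in DMSO + LPS gave a ratio of 24.4 with an exact 95% counting interval of 10.1 to 76.6, and the 11 counts at 32 µM gave a ratio of 2.70 with an interval of 0.865 to 9.91, which includes no difference from resting cells.

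*Ccl3*, *Ccl4* and *Ccl5* code for inflammatory chemokines that attract monocytes and T cells, and those made from *Ccl3* and *Ccl5* bind Ccr1. *Ccl3* stood at 33.4 and 30.1 CPM in the DMSO libraries, 2299 and 2314 CPM with DMSO + LPS, and then with **1** at 2384 and 2320.4 CPM (3.2 µM), 1856 and 1619 CPM (10 µM) and 1214 and 1071 CPM (32 µM). Both libraries at 10 µM and both at 32 µM lay below the DMSO + LPS libraries. The rise with LPS was 72.7-fold (log2 fold change 6.18, SE 0.106, adjusted p = 4.53e-09). *Ccl3* fell 2.02-fold at 32 µM (log2 fold change −1.01, SE 0.0848, adjusted p = 1.86e-04), and the 10 µM difference was below the fold cutoff with an adjusted p of 0.0510 (log2 fold change −0.41). Without replicate 1 at 10 µM, the library with epithelial markers, that value was −0.51 (adjusted p = 0.0418), still below the fold cutoff, and without replicate 2 at 32 µM, the library with more ribosomal RNA counts, the 32 µM value was −0.93 (adjusted p = 0.00167).

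*Ccl4* stood at 8.74 and 7.24 CPM in the DMSO libraries, 632 and 665 CPM with DMSO + LPS, and then with **1** at 682 and 645 CPM (3.2 µM), 529 and 412 CPM (10 µM) and 336 and 256 CPM (32 µM). It rose 81.1-fold with LPS (log2 fold change 6.34, SE 0.199, adjusted p = 9.33e-08) and fell 2.19-fold at 32 µM (log2 fold change −1.13, SE 0.157, adjusted p = 0.00289). Its replicates differed by 0.36 on the log2 scale at 10 µM and by 0.39 at 32 µM, more than in DMSO + LPS, and the 10 µM difference was not called (log2 fold change −0.46, SE 0.156, adjusted p = 0.256). Without replicate 1 at 10 µM the 10 µM value was −0.65 (adjusted p = 0.137), and without replicate 2 at 32 µM the 32 µM value was −0.95 (adjusted p = 0.0163).

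*Ccl5*, whose product attracts T cells and eosinophils, was the member that the test called at no dose of **1**. Whether its response differed from those of the other members was not tested. It stood at 2.18 and 1.97 CPM in the DMSO libraries, 263 and 280.2 CPM with DMSO + LPS, and then with **1** at 309 and 279 CPM (3.2 µM), 347 and 210.5 CPM (10 µM) and 252 and 161 CPM (32 µM). Both 32 µM libraries lay below the DMSO + LPS libraries, replicate 1 only just, and the 10 µM libraries lay on either side of them. LPS raised *Ccl5* 131-fold (log2 fold change 7.03, SE 0.346, adjusted p = 1.10e-06). The 32 µM difference was −0.40 on the log2 scale (95% interval −0.98 to 0.19, adjusted p = 0.444), and the 10 µM difference was 0.04 (−0.55 to 0.62, adjusted p = 0.982). The interval at 32 µM covers both no change and a fall past the 1.5-fold cutoff.

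The replicates of *Ccl5* differed by 0.65 on the log2 scale at 32 µM and by 0.72 at 10 µM, replicate 1 being higher in both. The short-transcript score of a library, the median log2 CPM of 466 other genes with transcripts under 1000 nt relative to the mean of all libraries, was 0.13 and −0.26 in replicates 1 and 2 at 32 µM and 0.29 and −0.11 at 10 µM. With that score in the fit the 32 µM log2 fold change of *Ccl5* was −0.30 with an adjusted p of 0.00115, still below the fold cutoff. Without replicate 2 at 32 µM, the library with more ribosomal RNA counts, the 32 µM value was −0.11. Over leaving out each library in turn it ran from −0.76 to −0.11. Without replicate 1 at 10 µM, the library with epithelial markers, the 10 µM value was −0.37, in a range of −0.37 to 0.33.

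*Ccl9* and *Ccl6* code for ligands of Ccr1 that are found in mice. *Ccl9* was the most counted member in every library, at 399 and 385 CPM in the DMSO libraries, 3627 and 3746 CPM with DMSO + LPS, and then with **1** at 3666 and 3565 CPM (3.2 µM), 2899 and 2769 CPM (10 µM) and 1974 and 1926 CPM (32 µM). It was also the member with the highest level in resting cells. Its rise with LPS, 9.40-fold, was smaller than that of 8 of the others (log2 fold change 3.23, SE 0.0441, adjusted p = 2.09e-09). It fell 1.89-fold at 32 µM (log2 fold change −0.92, SE 0.0408, adjusted p = 7.50e-06). At 10 µM the difference passed the adjusted p but was below the fold cutoff (log2 fold change −0.38, SE 0.0405, adjusted p = 0.00353).

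*Ccl6* lies next to *Ccl9* but was counted far less, with 40 and 49 counts in the DMSO libraries, 177 and 135 counts with DMSO + LPS, and then with **1** at 120 and 126 counts (3.2 µM), 136 and 92 counts (10 µM) and 52 and 48 counts (32 µM). The 32 µM libraries lay near those of resting cells, and the 10 µM replicates lay apart from each other. *Ccl6* rose 3.86-fold with LPS (log2 fold change 1.95, SE 0.214, adjusted p = 1.26e-04) and fell 2.81-fold at 32 µM (log2 fold change −1.49, SE 0.211, adjusted p = 0.00322), while at 10 µM it was not called (log2 fold change −0.27, SE 0.202, adjusted p = 0.738). Without replicate 1 at 10 µM the 10 µM value was −0.55, and over leaving out each library in turn it ran from −0.55 to −0.05. Without replicate 2 at 32 µM the 32 µM value was −1.49. The difference between 32 µM and resting cells was not called (log2 fold change 0.46, 95% interval −0.05 to 0.97, adjusted p = 0.12).

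*Ccl22* and *Ccl17* code for the ligands of Ccr4, a receptor of T cells. *Ccl22* stood at 0.238 and 0.176 CPM in the DMSO libraries, 62.4 and 60.6 CPM with DMSO + LPS, and then with **1** at 51.9 and 48.6 CPM (3.2 µM), 32.5 and 32.6 CPM (10 µM) and 21.9 and 20.8 CPM (32 µM). The conditions did not overlap, and the level stepped down with each higher dose. It had the largest rise of the 10 members with LPS, 293-fold (log2 fold change 8.19, SE 0.107, adjusted p = 1.72e-09). It fell 1.89-fold at 10 µM (log2 fold change −0.92, SE 0.0654, adjusted p = 6.01e-04) and 2.88-fold at 32 µM (log2 fold change −1.53, SE 0.0667, adjusted p = 6.90e-06). At 3.2 µM both libraries lay below DMSO + LPS with an unadjusted quasi-likelihood p of 0.00211, which did not pass the adjustment (log2 fold change −0.29, SE 0.0646, adjusted p = 0.710). It passed below the fold cutoff in the 4 libraries alone (−0.29, adjusted p = 0.00890) and in the fit that included the short-transcript score (−0.31, adjusted p = 0.0141).

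*Ccl17* was at the limit of what these libraries could count, with 2 and 2 counts in the DMSO libraries, 44 and 36 counts with DMSO + LPS, and then with **1** at 30 and 33 counts (3.2 µM), 22 and 21 counts (10 µM) and 12 and 2 counts (32 µM). The 32 µM replicates differed by 2.47 on the log2 scale, 12 counts against 2. The 80 counts in DMSO + LPS against 4 in DMSO gave a ratio of 22.2 with an exact 95% counting interval of 8.33 to 83.4. The fall at 32 µM was called (log2 fold change −2.37, SE 0.566, adjusted p = 0.0376), but it was lost when any 1 of 7 libraries was left out (adjusted p between 0.0700 and 0.183), among them replicate 2 at 32 µM, without which the log2 fold change was −1.64. Without replicate 1 at 32 µM it was −4.04. These intervals cover counting error only.

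**Figure D1:**
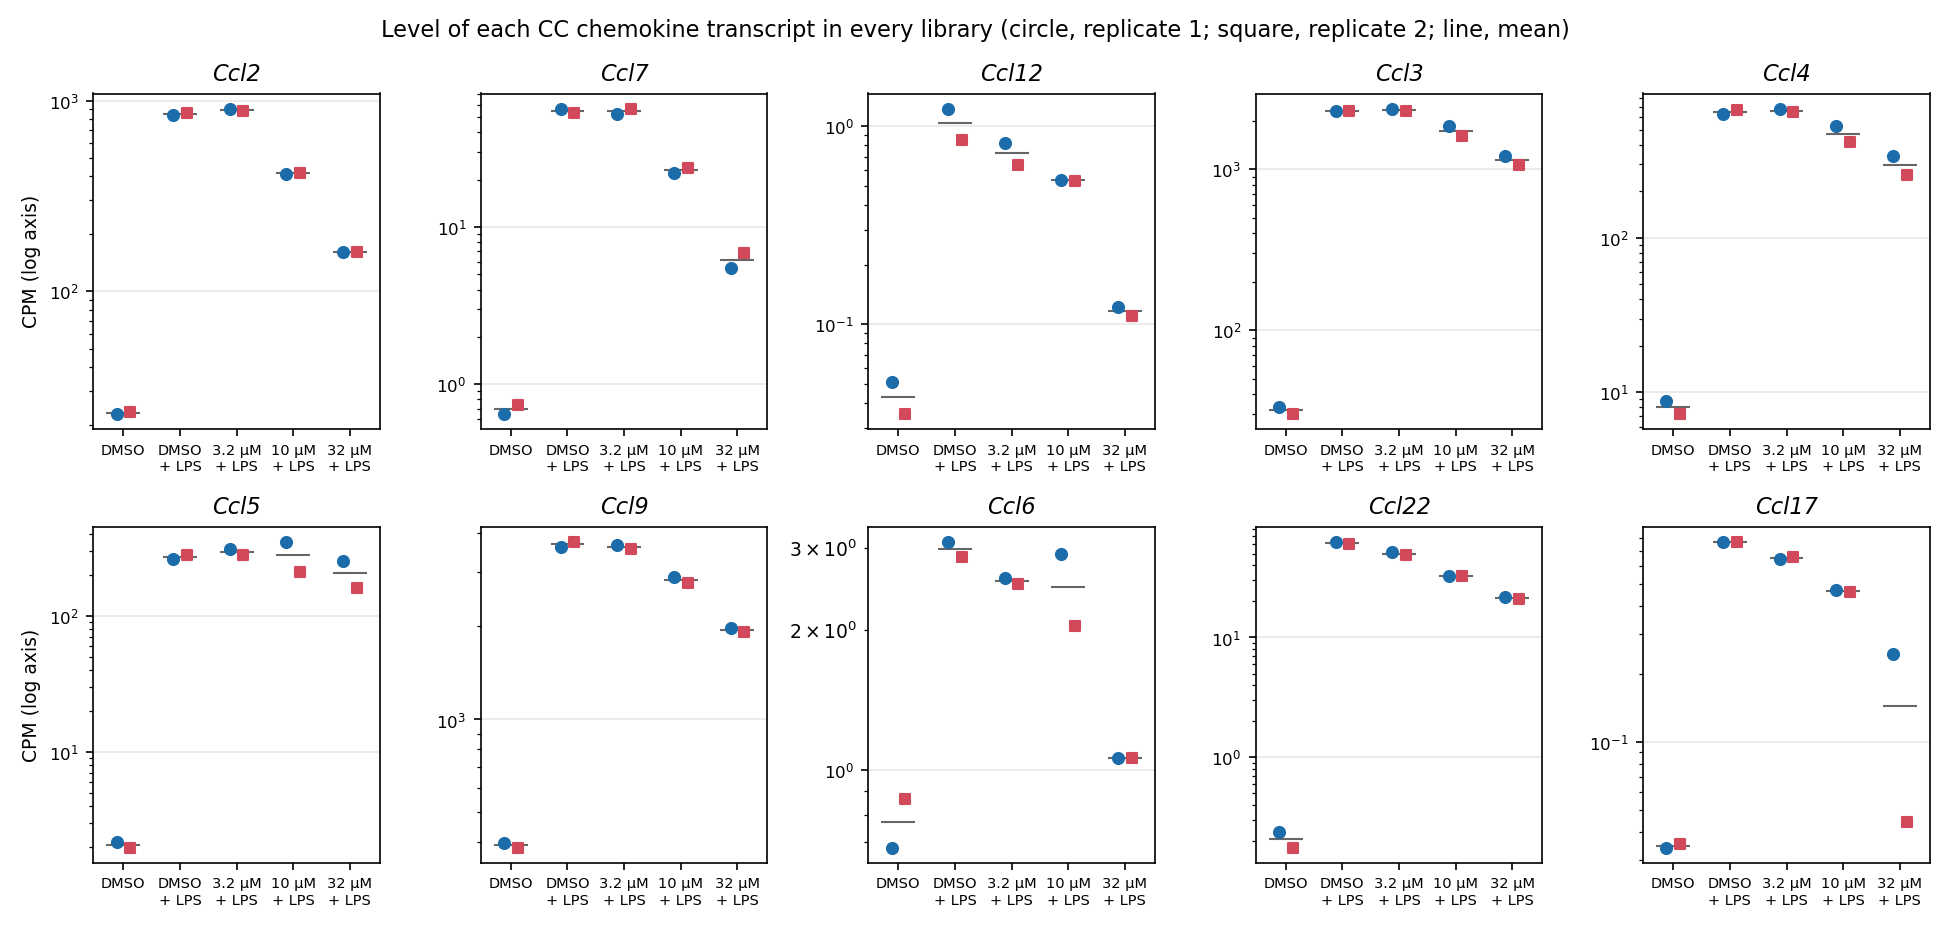
CPM of each member on a log axis in the 10 libraries, with a circle for replicate 1, a square for replicate 2 and a line at the mean of each condition. Each member is lowest in DMSO, and the replicates at 10 and 32 µM lie apart for *Ccl5*, at 347 and 210.5 CPM and at 252 and 161 CPM, and close together for *Ccl2*.

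The 10 members were chosen with earlier results of these data known, so the shares of all genes set beside their counts carry no test. LPS raised all 10 members, where 14.6% of the genes tested were called higher. The median log2 fold change of the members was 5.70, and that of all genes tested was 0.00. In each of the 10 the libraries of DMSO + LPS lay above both of DMSO, which held for 38.2% of all genes tested. The log2 fold changes ran from 1.95 for *Ccl6* to 8.19 for *Ccl22*, and the count stayed at 10 with each library left out in turn.

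With **1** at 32 µM, 9 of the 10 members were called lower than in DMSO + LPS and 0 higher, where 2.91% of the genes tested were called lower and 1.26% higher. The exception was *Ccl5*. The median log2 fold change of the members was −1.51 and that of all genes 0.01. Both libraries lay below both of DMSO + LPS for all 10 members, which held for 24.3% of all genes tested. The falls were largest for *Ccl7* (−3.15), *Ccl12* (−3.13) and *Ccl2* (−2.41), and among called members smallest for *Ccl9* (−0.92) and *Ccl3* (−1.01), all as log2 fold changes. *Ccl17* (−2.37) could not be ordered against *Ccl2*, and without replicate 1 at 32 µM its value, −4.04, was below those of all 3. Without replicate 2 at 32 µM 8 members were called, *Ccl17* being lost.

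At 10 µM, 3 members were called lower (*Ccl2*, *Ccl7* and *Ccl22*) and 0 higher, where 0.579% of the genes were called lower and 0.282% higher. The median log2 fold change of the 10 members was −0.59 and that of all genes 0.02. The libraries of 8 members lay below both DMSO + LPS libraries, against 17.9% of all genes, and those of *Ccl5* and *Ccl6* overlapped. Without replicate 1, the library with epithelial markers, the same 3 members were called, with log2 fold changes of −1.03 for *Ccl2*, −1.20 for *Ccl7* and −0.92 for *Ccl22*.

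At 3.2 µM edgeR's quasi-likelihood test called 0 of the 10 members and 0 of all genes, 0% in either direction. At an unadjusted p below 0.05 in that test there were 600 of the 14172 genes tested, among the members only *Ccl22*. DESeq2's Wald test called 8 genes, edgeR's likelihood ratio test 3, the fit with the short-transcript score 5 and the 4 libraries alone 66, with 0 members in each. The members' median log2 fold change was −0.02 and that of all genes 0.00. These 3 comparisons share the DMSO + LPS libraries.

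**Figure D2:**
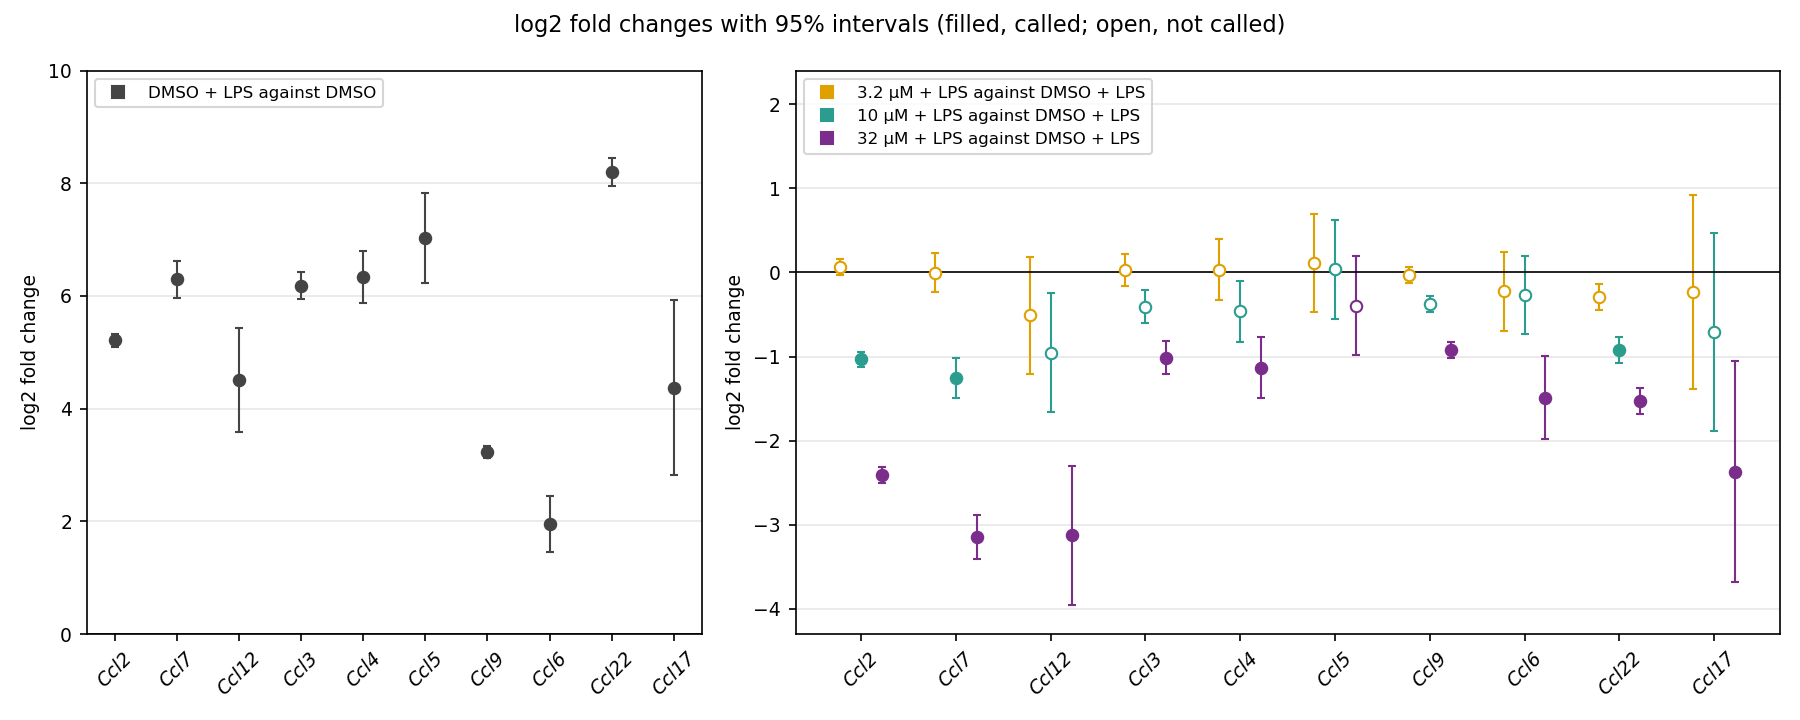
log2 fold change of each member with its 95% interval, on the left for DMSO + LPS against DMSO and on the right for **1** at 3.2, 10 and 32 µM with LPS against DMSO + LPS, with filled points for called genes. At 32 µM the points run from −3.15 for *Ccl7* to −0.40 for *Ccl5*, whose interval crosses 0.

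The doses were also compared with each other. From 3.2 to 10 µM the same 3 members, *Ccl2* (log2 fold change −1.10), *Ccl7* (−1.25) and *Ccl22* (−0.63), were called lower, where 0.183% of all genes were. Leaving out either 3.2 µM library left 1 of them, *Ccl2*, and a fit of the 4 libraries alone called 0. From 10 to 32 µM, 6 members were called lower, where 1.15% of all genes were: *Ccl7* (−1.89), *Ccl12* (−2.17), *Ccl2* (−1.37), *Ccl6* (−1.22), *Ccl22* (−0.61) and *Ccl3* (−0.60). *Ccl9* passed the adjusted p there (3.59e-04) but not the fold cutoff (−0.54). *Ccl17* was not called (−1.66, adjusted p = 0.273), and its value ran from −3.33 to −0.93 over leaving out each library in turn.

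Several of the 10 to 32 µM calls rested on single libraries. Without replicate 2 at 32 µM 2 members were called and without replicate 1 at 10 µM 3 members, and the 4 libraries alone called 1. The calls of *Ccl12* and *Ccl6* were each lost on leaving out any 1 of 7 libraries, with adjusted p between 0.0513 and 0.163 for *Ccl12* and between 0.0596 and 0.143 for *Ccl6*. Those of *Ccl2* and *Ccl7* were kept with each library left out. *Ccl4* was not called (adjusted p = 0.0846) in the quasi-likelihood test but was with no filter on low counts (adjusted p = 0.00340), by the likelihood ratio test (adjusted p = 0.00651), by DESeq2 (adjusted p = 3.01e-04) and without replicate 2 at 10 µM (adjusted p = 0.0455).

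With 32 µM of **1** and LPS most members were above the resting level. Against DMSO, 7 members were called higher, where 13.8% of all genes were, from a log2 fold change of 2.31 for *Ccl9* to 6.67 for *Ccl22*. The members not called were *Ccl12*, *Ccl17* and *Ccl6*, the 3 with the lowest counts, and their libraries also lay above both of DMSO, as did those of 35.8% of all genes. *Ccl17* (adjusted p = 0.0554) had a log2 fold change of 2.01 there. It was called with no filter on low counts (adjusted p = 0.0480), by the likelihood ratio test (adjusted p = 0.0269) and when replicate 2 at 32 µM was left out (2.74, adjusted p = 0.00290), and without replicate 1 at 32 µM the value was 0.33 (adjusted p = 0.858).

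To set the members side by side, the rise over resting cells that was left with **1** was expressed as a share of the rise in DMSO + LPS. At 32 µM it was highest for *Ccl5*, whose libraries were at 92.7% and 58.9%. The monocyte chemoattractants kept little, with means of 7.39% for *Ccl12*, 10.2% for *Ccl7* and 16.6% for *Ccl2*, as did *Ccl6* at 13.1%, or 8.33% with library size as the only scaling. The replicates of *Ccl17*, at 28.7% and 1.31%, span all of these, and *Ccl12* rests on 6 and 5 counts, so the lowest share could not be told. *Ccl22* kept 34.5%, with 33.5% and 35.4% in its libraries, and lay apart from the members on either side.

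*Ccl4* (44.9%), *Ccl9* (47.3%) and *Ccl3* (48.8%) could not be ordered, since the libraries of *Ccl4*, at 38.7% and 51.2%, enclosed those of *Ccl9* and overlapped those of *Ccl3*, at 45.7% and 52.0%. In the second group of chromosome 11, *Ccl6* thus lay at 13.1% while its 4 neighbors kept between 44.9% and 75.8% on average.

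**Figure D3:**
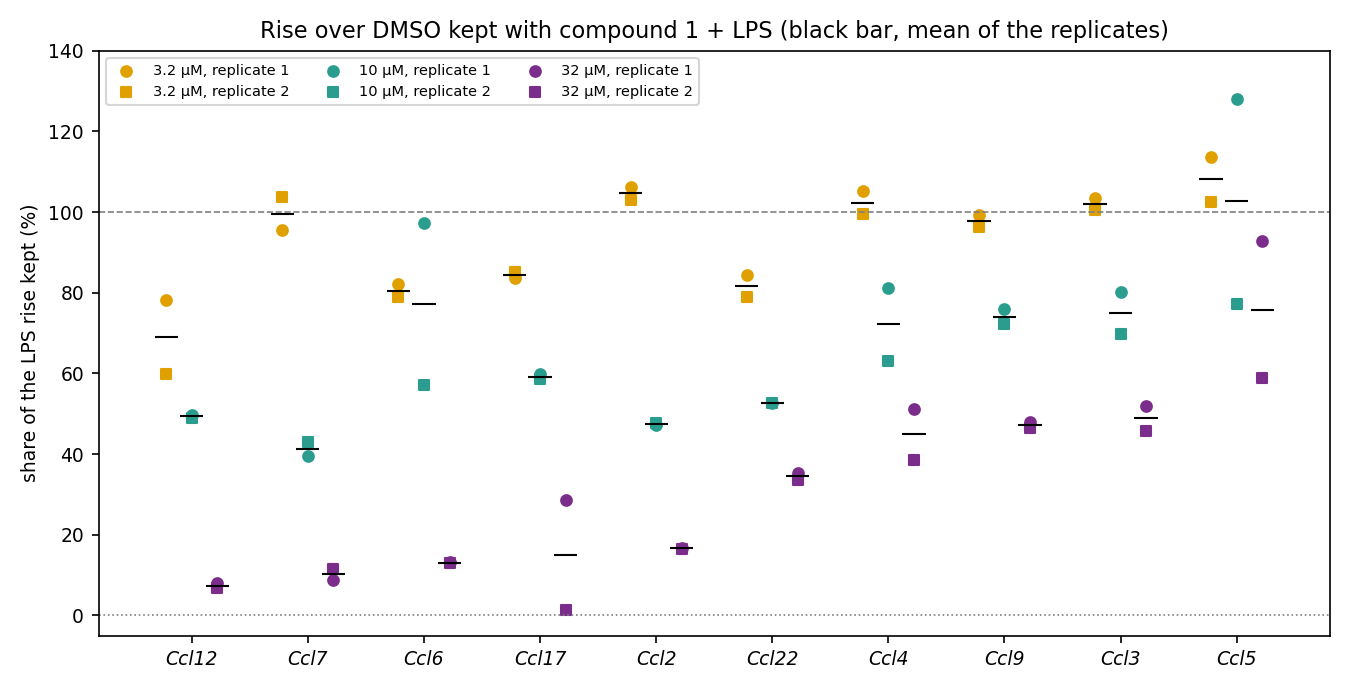
Share of the LPS rise kept in each library with **1** at 3.2, 10 and 32 µM, where 100% is the mean of DMSO + LPS and 0% the mean of DMSO, with members ordered by their mean at 32 µM. At 3.2 µM the means lie between 69.0% for *Ccl12* and 108% for *Ccl5*, and at 32 µM *Ccl12*, *Ccl7*, *Ccl6*, *Ccl17* and *Ccl2* lie between 7.39% and 16.6% on average.

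At 10 µM the shares of *Ccl2* (47.2% and 47.6%), *Ccl12* (49.7% and 49.1%), *Ccl22* (52.6% and 52.8%) and *Ccl17* (59.8% and 58.7%) were close to each other and between replicates. All shares leave out the spread between the DMSO + LPS libraries, which held 70 and 40 counts of *Ccl12*. *Ccl7*, at 39.6% and 42.9%, was lower than *Ccl2*, *Ccl22* and *Ccl17* and could not be ordered against *Ccl12*. *Ccl4* (81.3% and 63.2%), *Ccl3* (80.2% and 69.8%) and *Ccl9* (76.1% and 72.1%) were higher, and *Ccl5* (128% and 77.3%) and *Ccl6* (97.3% and 57.2%) differed most between replicates, with the higher value in the library that also held epithelial markers.

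Levels of different genes were compared only per length of the longest annotated transcript, as shares of the summed level of the 10 members in a library. In resting cells *Ccl9* made up 61.7% and 62.7%, *Ccl3* 20.2% and 19.2%, *Ccl2* 9.66% and 10.4%, *Ccl4* 6.15% and 5.37%, and *Ccl5* 1.51% and 1.45%. With LPS the order became *Ccl3* (46.6% and 45.9%), *Ccl9* (18.8% and 18.9%), *Ccl4* (14.9% and 15.3%), *Ccl2* (12.0% and 12.0%) and *Ccl5* (6.12% and 6.37%). In both conditions no 2 neighbors in these orders overlapped between libraries, and the other 5 members each had at most 1.09%.

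At 32 µM *Ccl3* (48.1% and 49.4%) and *Ccl9* (19.9% and 22.6%) still led, and *Ccl4* was at 15.5% and 13.7%. *Ccl2* was at 4.48% and 5.16%, behind *Ccl5* at 11.5% and 8.50%. At 10 µM these 2 could not be ordered, with *Ccl2* at 7.37% and 8.67% and *Ccl5* at 10.1% and 7.15%, and by the length of the exon union the mean of *Ccl5* (6.22%) lay below that of *Ccl2* (7.97%). The 10 members together took 0.0524% and 0.0504% of all counts in the DMSO libraries, 0.756% and 0.775% with DMSO + LPS, and then with **1** 0.776% and 0.754% (3.2 µM), 0.594% and 0.540% (10 µM) and 0.392% and 0.345% (32 µM).

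**Figure D4:**
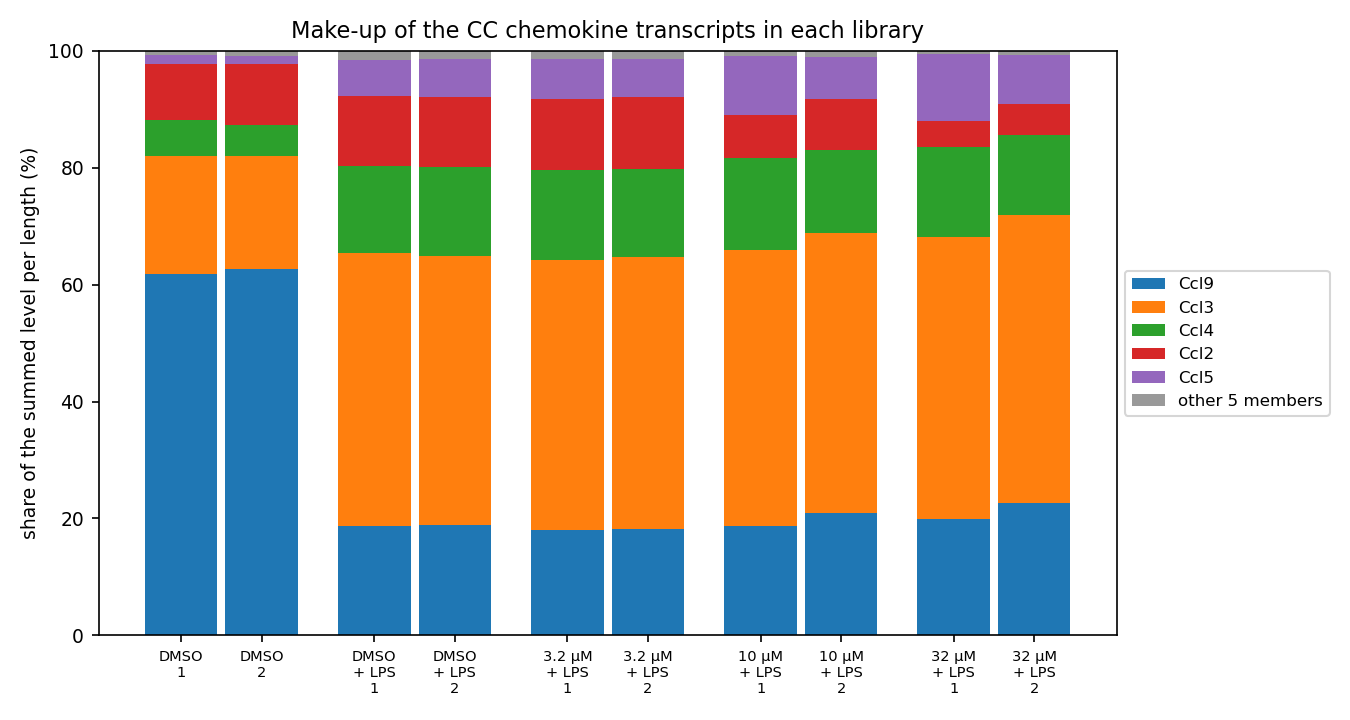
Share of each member in the summed level per length of the 10 members, 1 bar per library, with the 5 scarcest members drawn together. *Ccl9* takes 62.2% on average in DMSO and 18.8% in DMSO + LPS, and the *Ccl2* share is 12.0% in DMSO + LPS and 4.82% at 32 µM.

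RefSeq windows from 250 bases before to 50 bases after the annotated start (GRCm38.p6) were found for 6 of the 10 members, and were searched for letters that transcription factors of the LPS response and of Nrf2 are known to recognize. The 100 bases before the start are shown for *Ccl9*, the leading member in resting cells, and for *Ccl12*, a scarce member that kept little of its rise at 32 µM, 5′ to 3′ on the gene's strand, with matches in capitals.
Ccl9: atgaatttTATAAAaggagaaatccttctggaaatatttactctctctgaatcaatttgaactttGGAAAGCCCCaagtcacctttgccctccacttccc
Ccl12: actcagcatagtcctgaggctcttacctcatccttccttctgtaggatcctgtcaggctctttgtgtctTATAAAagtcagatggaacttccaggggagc
The *Ccl9* window lies at chr11:83578637-83578736 on the minus strand and the *Ccl12* window at chr11:82101745-82101844 on the plus strand. *Ccl9* held a match to the NF-κB consensus on the opposite strand, at positions −35 to −26, and TATAAA at −92 to −87. *Ccl12* held TATAAA at −31 to −26. The NF-κB consensus was matched on either strand in 4.51% of 32851 windows of all genes, and TATAAA, on the gene's strand alone, in 8.32%.

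The interferon response element GAAANNGAAA (3.44% of windows), the AP-1 site TGACTCA (5.2%) and the antioxidant response element TGACNNNGC (12.4%), each searched on both strands, were matched in 0 of the 6 windows. A match is a description of the letters, and no match says only that they are not within this window.

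Of 14 other CC chemokine genes, 1 was counted enough to be tested, *Ccl25*, which was called in no comparison with DMSO + LPS or DMSO. *Ccl28*, a chemokine of epithelia, and *Ccl20* had 32 and 10 counts in all libraries together, too few to be tested, and are named after their values were seen.

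Of 16 genes for CC chemokine receptors and scavenging receptors, 8 were tested. LPS raised 5 of them (*Ccr1*, *Ccr2*, *Ccr3*, *Ccr9* and *Ccrl2*) and lowered 0, where 14.6% of all genes were called higher. In DMSO *Ccr3* averaged 0.0431 CPM and *Ccr9* 0.00850 CPM, near the floor of these libraries. At 32 µM 2 of the 8 were called lower and 0 higher, where 2.91% of all genes were called lower and 1.26% higher. At 10 µM 1 was called lower, where 0.579% of all genes were. The median log2 fold change of the 8 was −0.34 at 32 µM. *Ccrl2*, a receptor-like protein that presents chemerin, stood at 1.57 ± 0.205 CPM (SD, n = 2) in the DMSO libraries, 51.2 ± 0.682 CPM with DMSO + LPS, 27.8 ± 2.30 CPM with 10 µM and 17.6 ± 0.0202 CPM with 32 µM of **1**. Its log2 fold change was −0.88 at 10 µM (adjusted p = 0.00236) and −1.54 at 32 µM (adjusted p = 2.04e-05). *Ccr1*, the receptor for the products of *Ccl3*, *Ccl5*, *Ccl6* and *Ccl9*, stood at 0.721 ± 0.226 CPM (SD, n = 2) in DMSO, 13.4 ± 1.66 in DMSO + LPS and 7.37 ± 0.653 at 32 µM (log2 fold change −0.86, adjusted p = 0.0141). *Ccr2*, the receptor for the monocyte chemoattractants, was called at no dose and stood at 8.92 ± 1.02 CPM in DMSO + LPS and 7.30 ± 0.499 at 32 µM, while *Ccr4*, also named after its values were seen, had 12 counts in all libraries together and was not tested.

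Genes that act upstream of the chemokines, and those of the later lists, were counted in the same way and against the same shares of all genes. Of 7 tested genes for the LPS receptor and its adaptors, LPS raised 4 and lowered 2, where 13.6% of all genes were called lower, *Tlr4* among the latter (log2 fold change −1.09), and 0 were called at any dose of **1**. Below the fold cutoff, *Cd14*, the co-receptor, passed the adjusted p at 10 µM (−0.30, adjusted p = 0.00555) and 32 µM (−0.38, adjusted p = 4.18e-04), and *Myd88*, an adaptor, at 32 µM (−0.35, adjusted p = 0.0260). Of 10 NF-κB subunits and inhibitors, LPS raised 9. At 32 µM 2 of these were called lower, *Nfkbiz* (log2 fold change −0.68, adjusted p = 9.41e-04), which codes for a nuclear cofactor, and *Tnfaip3* (−0.59, adjusted p = 2.39e-04), which codes for a feedback inhibitor, and 0 higher. Below the fold cutoff, the subunit gene *Nfkb1* (−0.32, adjusted p = 0.00805) and the inhibitor gene *Nfkbia* (−0.36, adjusted p = 0.00978) passed the adjusted p at 32 µM, and *Nfkbiz* at 10 µM (−0.42, adjusted p = 0.0294). *Tnfaip3* and, of the next list, *Ifnb1*, *Irf1* and *Irf8* are named for passing the adjusted p, after their values were seen. The list's median log2 fold change at 32 µM was −0.25, against −1.51 for the chemokines and 0.01 for all genes.

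Of 10 genes of the interferon beta relay, LPS raised 5 and at 32 µM 4 were called lower, among them *Ifnb1* (log2 fold change −2.21, adjusted p = 0.00241), *Irf7* (−1.48, adjusted p = 5.83e-06) and *Stat2* (−1.45, adjusted p = 3.09e-06). At 10 µM *Stat2* alone was called (−0.65, adjusted p = 9.66e-04). Below the fold cutoff, *Irf7* passed the adjusted p at 10 µM (−0.55, adjusted p = 0.00408), and *Irf1* (−0.41, adjusted p = 0.0165), *Irf8* (−0.28, adjusted p = 0.0258) and *Irf9* (−0.28, adjusted p = 0.00498) at 32 µM. The receptor genes *Ifnar1* and *Ifnar2* were called in neither comparison. The median log2 fold change of the list at 32 µM was −0.34. At 3.2 µM 0 genes of these lists were called.

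Of 7 genes whose proteins bind AU-rich elements or otherwise decay cytokine mRNAs, LPS raised 2 (*Zfp36* and *Zc3h12a*) and lowered 1, *Zfp36l2*, which was called higher at 32 µM (log2 fold change 0.64, adjusted p = 0.00529). *Zfp36* (−0.44, adjusted p = 0.00128) and *Zc3h12a* (−0.27, adjusted p = 0.0115) passed the adjusted p at 32 µM in the other direction, below the fold cutoff. Of 4 tested genes for proteases that trim chemokines, LPS raised all 4. *Mmp9*, gelatinase B, fell at 10 µM (log2 fold change −1.06, adjusted p = 0.00364) and at 32 µM (−1.42, adjusted p = 1.73e-04), while *Mmp12*, macrophage elastase, passed the adjusted p in the other direction at both doses without reaching the fold cutoff (log2 fold changes 0.40 and 0.41, adjusted p = 0.0159 and 0.00425). The median log2 fold changes of these lists at 32 µM were −0.017 and −0.15.

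Among the 3 members with the largest range of condition means, the genes outside the family and the lists whose log2 CPM followed them most closely over the 10 libraries were named from 9497 genes with a mean of at least 5 CPM. For *Ccl22* they were *6530402F18Rik*, *Il1b* and *Tnfrsf8*, all with Pearson's r rounding to 0.999. For *Ccl5* they were *H2-Q6* (0.999), *Csrnp1* (0.999) and *Ehd1* (0.998), and for *Ccl4* they were *Pim1* (0.999), *Sdc4* (0.999) and *Il1a* (0.999). The libraries share conditions, and the step from resting to stimulated cells sets much of each r, so these values describe the order and carry no test.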

How the data were processed

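RNA-seq of RAW264.7 cells under 5 conditions with 2 libraries each was analyzed. The libraries were poly(A)-selected, stranded and sequenced with 2 × 150 cycles on 1 lane. The authors deposited raw counts per mouse Ensembl gene, not normalized. The submitters' processing notes name Trimmomatic, FastQC, STAR, DESeq2 and mm10, and the counting tool, its use of strand and the annotation are not given in the sources used here. Symbols (42548 of 43432 identifiers), positions and transcript lengths were taken from GENCODE M21 on GRCm38.

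Genes were filtered with filterByExpr (minimum count 10), scaled by TMM and fitted with 1 mean per condition in edgeR 4.0.16 (with limma 3.58.1, DESeq2 1.42.0 and data.table, version 1.17.8, in R 4.3.3). Unless another test or fit is named, adjusted p-values are Benjamini-Hochberg values of edgeR's quasi-likelihood test over 14172 genes, with a common biological coefficient of variation of 0.128 and 5 residual and 2.76 prior degrees of freedom. SE is the absolute log2 fold change divided by the square root of the quasi-likelihood F of the same fit. The 95% intervals of fold changes were built from that SE, and those of count ratios are exact conditional intervals. At 5 CPM the smallest library gives 230 counts. Sequences were read with Biopython 1.88 and plots drawn with matplotlib 3.10.9 in Python 3.11.15.

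All members were named, and of each other list at most the 6 tested genes with the highest mean CPM, with exceptions marked. The members and lists were chosen with earlier results of these data known. Alternatives were scaling by library size or by DESeq2's size factors, a filter at a mean of 5 CPM or none, the likelihood ratio and DESeq2's Wald tests, the replicate number or the short-transcript score as a term, the 4 libraries compared alone, a 2-fold cutoff, exon union lengths, and leaving out each library. The steps were tested on simulated data. Some items are not reported here.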

Additional observations from a re-analysis of the deposited data

How the results depend on the processing

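Of 1377 combinations of gene, comparison and alternative for single chemokines, direction and call were kept in 650 with another setting and in 661 with a library left out. A call was lost in 15 and 28, gained in 6 and 3, and the sign changed in 6 and 8 of them. The replicate block, the replicate number as a term in the fit, called 10, 9, 3 and 0 members for LPS, 32, 10 and 3.2 µM, and 7 from 10 to 32 µM, *Ccl4* being added (adjusted p = 0.0161 against 0.0846 without the block). The deviations of same-numbered libraries correlated between 0.104 and 0.573 in the 6 pairs of conditions without DMSO + LPS and between −0.169 and −0.066 in the 4 pairs with it, so the numbers were not taken to pair the samples throughout. The filter at a mean of 5 CPM removed *Ccl6*, *Ccl12* and *Ccl17*, leaving 7 members called with LPS and 6 at 32 µM.

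Over all genes, a mean of at least 5 CPM gave 2635 calls for LPS (3989 in the report's fit) and 2541 for 32 µM against DMSO (3840), by the fewer genes tested. A 2-fold cutoff gave 2426 for LPS, 317 at 32 µM (591), 36 at 10 µM (122), 63 from 10 to 32 µM (187), 8 from 3.2 to 10 µM (36) and 2245 for 32 µM against DMSO. The 4 libraries alone gave 41 at 10 µM, 66 at 3.2 µM, 5 from 10 to 32 µM with 1 member, and 0 from 3.2 to 10 µM with 0 members. The score gave 228 at 10 µM, 5 at 3.2 µM and 104 from 3.2 to 10 µM. At 3.2 µM no filter gave 1, the likelihood ratio test 3 and DESeq2 8, and from 3.2 to 10 µM the likelihood ratio test gave 61.

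Leaving out 1 library gave between 52 and 227 genes at 10 µM, 0 and 1 at 3.2 µM, and 5 and 66 from 3.2 to 10 µM, with 1 to 3 members, and 2 to 6 members from 10 to 32 µM. The cause of these shifts was not tested.

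The differences that changed sign were not called in any fit. For *Ccl5* at 10 µM the log2 fold change was −0.0077 with the block, −0.12 with the score and between −0.37 and 0.33 without 1 library. With the score the 3.2 µM values were 0.067 for *Ccl7*, −0.034 for *Ccl3*, −0.094 for *Ccl4* and −0.12 for *Ccl5*, and without 1 library they ran from −0.065 to 0.053 for *Ccl7* and from −0.0056 to 0.071 for *Ccl4*. From 3.2 to 10 µM the ranges without 1 library were −0.48 to 0.23 for *Ccl5* and −0.33 to 0.18 for *Ccl6*.

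The share of the LPS rise kept at 32 µM was 16.3% for *Ccl2* and 8.33% for *Ccl6* with library size alone, and 13.2% for *Ccl6* with DESeq2's size factors. By exon union length the shares of the summed level were 47.5% (DMSO + LPS) and 50.5% (32 µM) for *Ccl3*, and in DMSO + LPS 15.5% for *Ccl4*, 19.1% for *Ccl9* and 11.8% for *Ccl2*. For *Ccl5* they were 1.05% in DMSO, 4.46% in DMSO + LPS and 7.20% at 32 µM. Depth limits *Ccl12* and *Ccl17*, with 5 and 4 counts in DMSO.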
